A study of Mus musculus with 14 samples.

Results

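The genes described here are Ripk3, Ripk1, Mlkl, Casp8 and Fadd, the core of the necroptosis machinery. They were found by symbol, and all 5 had a row among the 23697 of the deposited expression table. After short RNAs were left out and rows with the same symbol were summed, the 5 were among 22489 symbols. All 5 passed the filter of at least 1 FPKM (fragments scaled to transcript length and to the mapped fragments of the library, so a level per length) in at least 2 libraries, as did 13451 symbols in all. Ripk3 was selected on the measured FPKM values of nuclear-transfer and fertilised 2-cell embryos, and the other 4 were taken because they act with it. The levels in that comparison are therefore a description without a test.

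Necroptosis is a regulated form of cell death that ends in rupture of the plasma membrane. Downstream of death receptors, the kinase RIPK1 can engage the kinase RIPK3, which phosphorylates the pseudokinase MLKL, and MLKL then permeabilises the membrane. The protease caspase-8, recruited by the adaptor FADD, cleaves both kinases and restrains this route, so that mouse embryos lacking Casp8 or Fadd die at mid-gestation and are rescued from that death by loss of Ripk3. An mRNA level reports on none of these protein events.

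RNA-seq was done on 14 libraries in 7 groups of 2. One group held cumulus cells, the somatic cells around the oocyte that supplied the donor nuclei, with about 1000 cells a library. Embryos were made by in vitro fertilisation (IVF) of C57BL/6J oocytes with CAST/EiJ sperm (32 and 31 pooled 1-cell embryos, 25 and 25 pooled 2-cell embryos) or by transfer of a cumulus nucleus into an enucleated oocyte (somatic cell nuclear transfer, SCNT) (36 and 36 pooled 1-cell embryos, 40 and 40 pooled 2-cell embryos). The last 2 groups were 2-cell SCNT embryos with added Kdm4d, which removes methyl groups from lysine 9 of histone H3, or with a mutant of it, 25 pooled embryos a library each. All SCNT embryos shared the donor type, (C57BL/6J x CAST/EiJ) F1 per the strain label, and B6D2F1 recipient oocytes. The protocol text names BDF1 females as the cumulus source instead, which the sources used here do not settle. IVF and SCNT embryos thus differed in strain as well as in origin, and these cannot be told apart. The sources used here do not give the mutation or how Kdm4d was overexpressed. Nothing in the labels says that the libraries of a group came from separate experiments, so p-values measure the spread between these libraries, which may be technical.

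Kdm4d itself lay between 0.0322 and 0.759 FPKM in the 10 libraries without overexpression, at 8879 and 2255 FPKM in the Kdm4d libraries and at 723 and 283 FPKM in the mutant libraries. Total counts are not in the table. From the commonest ratio of low values, the depth of the 4 overexpressing libraries was 0.415 to 0.511 of the deepest library, that of the donor libraries 0.586 and that of the others at least 0.774. The robust SD between the libraries of a group, on the log2 scale, was 0.359 in the Kdm4d and 0.371 in the mutant group, against 0.0924 to 0.182 in the other 5. The defining markers followed the labels: 16 cumulus genes summed to 19444 to 25285 FPKM in donor cells and to at most 189 FPKM in any embryo library. The 10 oocyte transcripts summed to 12681 to 13025 FPKM in IVF 1-cell embryos and to 1.95 to 2.46 FPKM in donor cells.

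Ripk3 encodes the kinase that defines the necroptotic route. In the deposited table it lies at chr14:56403832-56407694 (mm9). It is known in other cells for silencing by promoter methylation, so its promoter is shown. Next to it is that of Casp8, the member with the opposite pattern over the 1-cell and 2-cell stages of SCNT embryos. These are the 250 bases before the start site, from RefSeq on GRCm38.p6 (a different build from that of the table), at chr14:55788858-55789107 on the minus strand and chr1:58802252-58802501 on the plus strand, with CG dinucleotides in capitals.
Ripk3: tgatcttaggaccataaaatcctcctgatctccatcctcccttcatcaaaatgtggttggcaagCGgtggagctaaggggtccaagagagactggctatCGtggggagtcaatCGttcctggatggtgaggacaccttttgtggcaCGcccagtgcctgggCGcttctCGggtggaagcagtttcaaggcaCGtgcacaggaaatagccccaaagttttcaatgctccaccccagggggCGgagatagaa
Casp8: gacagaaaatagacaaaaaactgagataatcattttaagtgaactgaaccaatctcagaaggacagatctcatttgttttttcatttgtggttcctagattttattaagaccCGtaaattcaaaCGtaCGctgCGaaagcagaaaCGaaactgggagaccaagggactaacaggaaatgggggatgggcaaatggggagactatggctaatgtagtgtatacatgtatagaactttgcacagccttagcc
The Ripk3 stretch held 8 CG dinucleotides and that of Casp8 held 5, where the median of 32851 promoters was 6. Ripk1 has a pair of start sites in the table, with 19 and 32 CG dinucleotides, Fadd has 19 and Mlkl has 5. All 5 genes matched the RefSeq table. The letters GGGCGG, the core of the binding motif of the factor Sp1, were searched on both strands and occurred in 32.7% of all promoters of that length. They were present once in the Ripk3 stretch, the first base lying 14 bases before the start site, 2 times for Fadd, and 2 and 4 times at the Ripk1 sites, and were not in the Casp8 and Mlkl windows. 

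Ripk3 mRNA was close to absent from 1-cell embryos and abundant in SCNT 2-cell embryos. It was listed at 0 in both IVF 1-cell libraries, and at 0.0115 and 0 FPKM in the SCNT 1-cell libraries. In IVF 2-cell embryos it was at 0.156 and 0.0418 FPKM, and in SCNT 2-cell embryos at 36.5 and 35 FPKM. No library of any other group reached either SCNT 2-cell value.

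The donor cells that supplied the nuclei had Ripk3 at 2.60 and 1.96 FPKM. The mean in SCNT 2-cell embryos, 35.7 ± 1.05 FPKM (SD, n = 2), was 15.6 times the donor mean of 2.28 ± 0.453 FPKM (SD, n = 2). Embryos overexpressing Kdm4d had 8.03 and 3.37 FPKM and embryos overexpressing the mutant had 12.3 and 23.8 FPKM. The order of the group means from the highest was thus SCNT 2-cell, mutant Kdm4d, Kdm4d, donor cells, IVF 2-cell, SCNT 1-cell and IVF 1-cell. Neighbours in this order did not overlap, except for the 1-cell groups. The Kdm4d libraries differed more from each other than the lower of them did from the donor libraries.

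Among the genes tested, 92.0% lay below Ripk3 in SCNT 2-cell embryos, 82.0% in the mutant group, 59.8% in the Kdm4d group, 40.7% in donor cells and 7.72% in IVF 2-cell embryos. The low values rest on very few reads. Scaled by relative depth, the lowest nonzero value was that of SCNT 1-cell library 1, and the IVF 2-cell libraries stood at 10.9 and 3.0 times that value while the SCNT 2-cell libraries stood at 2693 and 2731 times. For that reason no fold over IVF 2-cell embryos is given.

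**Figure D1:**
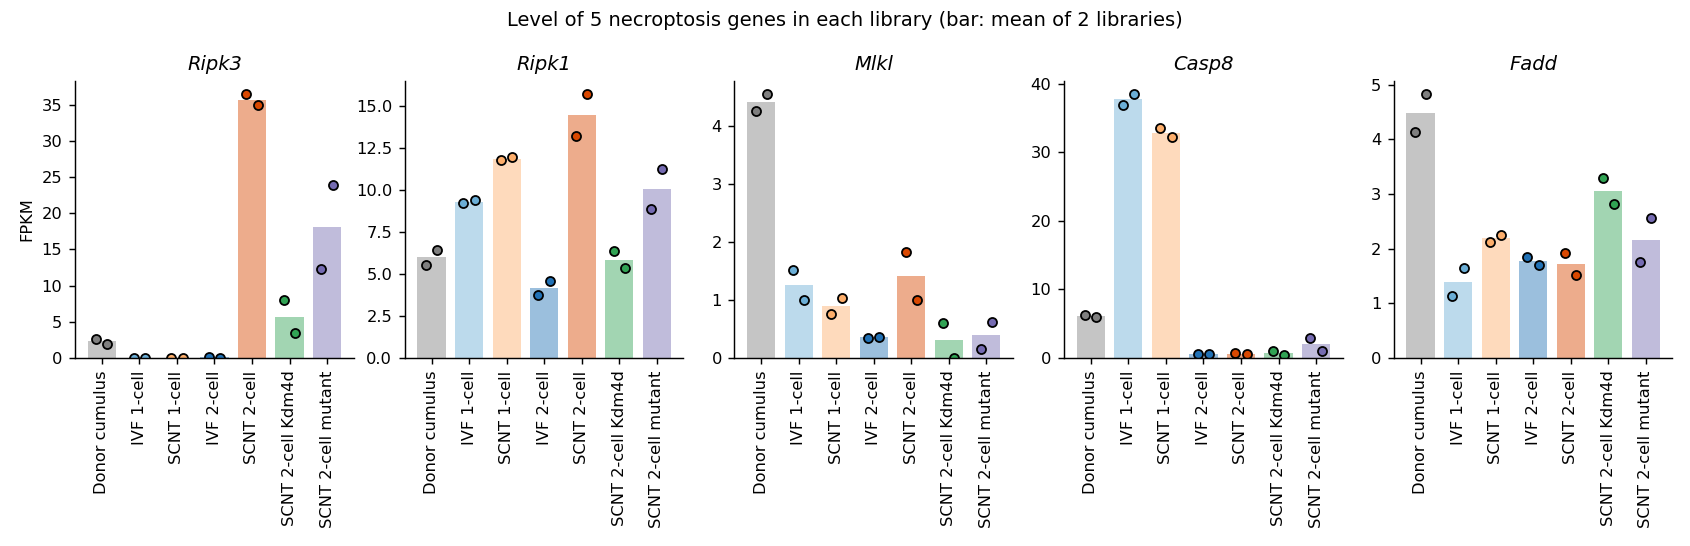
FPKM of Ripk3, Ripk1, Mlkl, Casp8 and Fadd in each of the 14 libraries, by group; points are libraries and bars are means of n = 2. Ripk3 is highest in SCNT 2-cell embryos (36.5 and 35 FPKM), while Casp8 is highest in the 1-cell embryos (32.2 to 38.5 FPKM).

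Ripk1, the kinase upstream of Ripk3, lies at chr13:34094743-34127039 (mm9). It was present in every library, between 3.73 and 15.7 FPKM. Its libraries stood at 13.2 and 15.7 FPKM in SCNT 2-cell embryos and at 3.73 and 4.56 FPKM in IVF 2-cell embryos. In 1-cell embryos it was at 9.22 and 9.41 FPKM after IVF and at 11.8 and 12 FPKM after SCNT, and donor cells had 5.56 and 6.41 FPKM. SCNT embryos were therefore above IVF embryos in every library at both stages. With Kdm4d the level was 6.35 and 5.37 FPKM and with the mutant 8.88 and 11.3 FPKM, both below the SCNT 2-cell libraries.

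Mlkl, the executioner of the route, lies at chr8:113835700-113861803 (mm9). It was low in all embryos, and its highest libraries were those of donor cells at 4.26 and 4.54 FPKM. IVF 1-cell embryos had 1.52 and 0.991 FPKM and SCNT 1-cell embryos 0.764 and 1.04 FPKM. At the 2-cell stage it was at 0.347 and 0.356 FPKM after IVF, 1.83 and 1.00 FPKM after SCNT, 0.604 and 0 FPKM with Kdm4d and 0.159 and 0.617 FPKM with the mutant. The SCNT 2-cell libraries thus lay above the 6 other 2-cell libraries, at levels where each value rests on little signal.

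Casp8, the protease that restrains the route, lies at chr1:58852218-58904347 (mm9). It was the most abundant of the 5 genes in every 1-cell library, at 37.0 and 38.5 FPKM after IVF and 33.6 and 32.2 FPKM after SCNT. At the 2-cell stage it was at 0.545 and 0.525 FPKM after IVF and at 0.645 and 0.507 FPKM after SCNT, with overlapping libraries. Kdm4d embryos had 0.951 and 0.441 FPKM, mutant embryos 2.85 and 1.06 FPKM, and donor cells 6.20 and 5.91 FPKM. The high 1-cell level was thus shared by both kinds of embryo, and so was the low 2-cell level.

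Fadd, the adaptor that recruits caspase-8 to death receptors, lies at chr7:151764228-151768341 (mm9). It ranged from 1.14 FPKM in an IVF 1-cell library to 4.83 FPKM in a donor library. Donor cells had 4.14 and 4.83 FPKM, IVF embryos 1.14 and 1.64 FPKM at the 1-cell and 1.85 and 1.70 FPKM at the 2-cell stage, and SCNT embryos 2.12 and 2.25 FPKM and 1.93 and 1.52 FPKM. Kdm4d embryos, at 3.28 and 2.82 FPKM, stood above every other embryo library, and the mutant libraries were at 1.75 and 2.57 FPKM. Reads of 50 bases that match elsewhere could blur some of these values: 7.87% of the 50-base stretches of Ripk1, 6.95% of those of Fadd and 4.37% of those of Casp8 are shared with other genes, and none of those of Ripk3 and Mlkl.

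In the comparison that chose Ripk3, SCNT minus IVF 2-cell embryos, the log2(FPKM + 1) difference was 5.06 for Ripk3, 1.59 for Ripk1, 0.82 for Mlkl, 0.04 for Casp8 and -0.03 for Fadd. The libraries did not overlap for Ripk3, Ripk1 and Mlkl and did for Casp8 and Fadd. How many of all genes had no overlap was not counted. Over all genes 46.9% were called in this comparison, and nothing is read from these differences.

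The remaining comparisons were tested with limma on log2(FPKM + 1), in a single fit of all 7 groups, with Benjamini-Hochberg adjustment over the 13451 genes of each comparison and a threshold of 0.05. The pseudocount of 1 understates changes of low genes. For Ripk3 a p-value is given only where a comparison shares no library with the one that chose it, which leaves donor cells against IVF 1-cell embryos, SCNT against IVF 1-cell embryos, and Kdm4d against mutant. Elsewhere its difference is given without a test, and the calls counted are those of the other 4 genes.

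**Figure D2:**
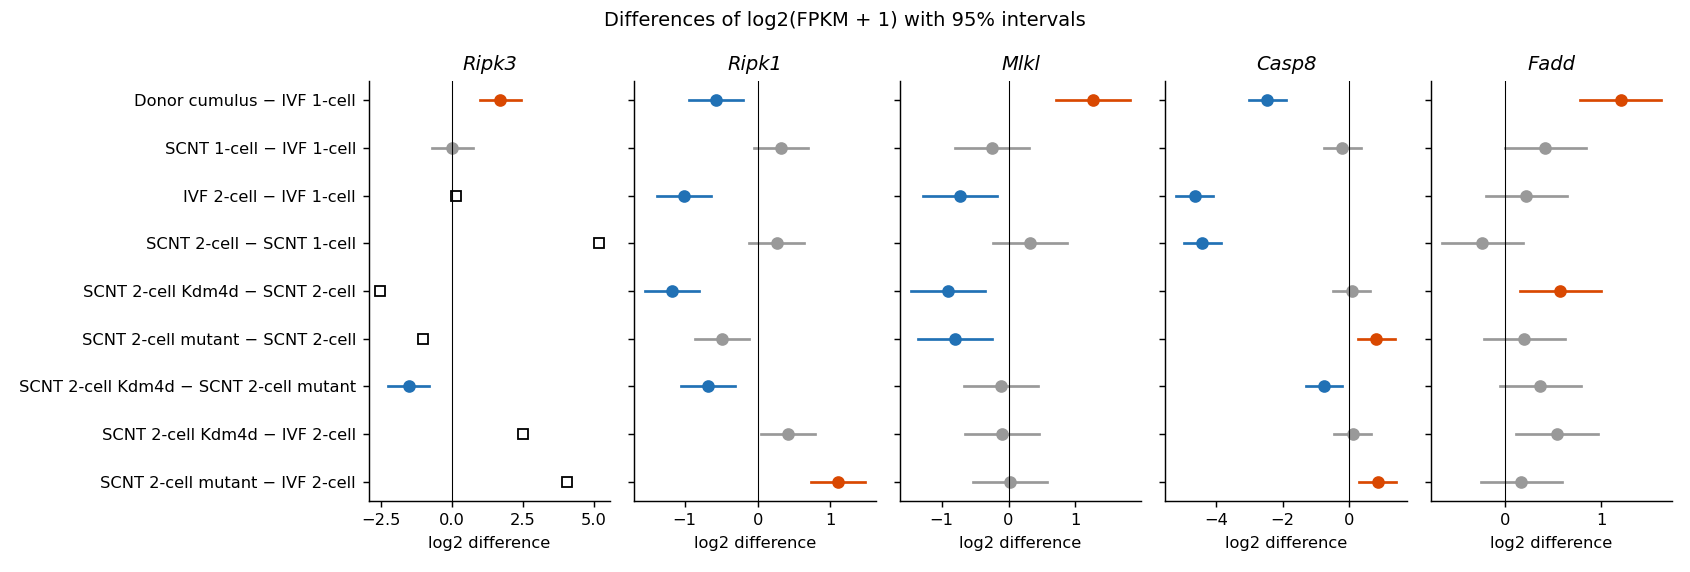
Log2(FPKM + 1) differences of the 5 genes in each comparison, with 95% confidence intervals from the limma fit; the vertical axis lists the comparisons, red points passed as higher, blue as lower and grey did not pass. Open squares are Ripk3 differences given without a test. Casp8 is lower at the 2-cell stage in both kinds of embryo (-4.66 and -4.43).

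The mutant group gives the comparison in which both sides overexpress a Kdm4d transcript and Ripk3 can be tested. The amount was not matched: Kdm4d stood at 8879 and 2255 FPKM in the Kdm4d libraries and at 723 and 283 FPKM in the mutant libraries. The mutation and the amount of transcript therefore cannot be told apart in this comparison. Ripk3, Ripk1 and Casp8 were lower with Kdm4d than with the mutant. Ripk3 was 8.03 and 3.37 FPKM against 12.3 and 23.8 FPKM, and the mutant mean was 3.17 times the Kdm4d mean. On the log2(FPKM + 1) scale Ripk3 differed by -1.53 (SE 0.33, 95% interval -2.25 to -0.81, limma adjusted p = 0.0032). The 4 libraries did not overlap, although each group's own libraries differed widely.

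Ripk1 was lower as well, with a difference of -0.69 (SE 0.17, limma adjusted p = 0.0071), with libraries that did not overlap. Casp8 differed by -0.75 (SE 0.26, limma adjusted p = 0.033), the least firm of the 3 calls. For Mlkl the difference was -0.11 (95% interval -0.67 to 0.44) and for Fadd 0.37 (95% interval -0.05 to 0.79), and neither passed. Of the 5 genes 3 passed, all lower, where 43.9% of all genes passed in this comparison and 22.5% were lower.

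The Casp8 call held in 4 of 10 alternatives and was lost in 6. It was lost with no filter, after quantile normalization, with group weights and in a fit to these 4 libraries, and when either of the following libraries was left out. Without mutant library 1 the Casp8 difference was -0.29 (limma adjusted p = 0.279), and without Kdm4d library 2 it was -0.53 (limma adjusted p = 0.195), within a range of 0.000688 to 0.279 over its 10 alternatives. Summed over 10 oocyte transcripts, mutant library 1 held 5852 FPKM, mutant library 2 held 2820 FPKM and the Kdm4d libraries held 3447 and 2338 FPKM. Their part in the Casp8 difference was not tested. For Ripk3, a fit to these 4 libraries alone gave an adjusted p of 0.128, within 0.00061 to 0.128 over 10 alternatives. That limma fit called 0 of 13451 genes, with 3892 at an unadjusted p under 0.05, where the fit of all groups called 5899. In the same fit of 4 libraries Ripk1 had an adjusted p of 0.189, within 0.00341 to 0.189 over its 10 alternatives. The Ripk1 call held in 8 of the 10. It was also lost with group weights, in a fit that called 16.7% of all genes. The fit of all groups assumes that Kdm4d and mutant libraries vary like the others, which their larger robust SD does not bear out.

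Against SCNT 2-cell embryos without added Kdm4d, Ripk1 and Mlkl were lower and Fadd higher in Kdm4d embryos. Ripk3 differed by -2.55 on the log2(FPKM + 1) scale, from a mean of 35.7 to 5.70 FPKM, 6.27 times lower, with no test. Ripk1 fell by 1.17 (SE 0.17, limma adjusted p = 0.00028), so that SCNT 2-cell embryos had 2.47 times the level of Kdm4d embryos. Mlkl fell by 0.91 (SE 0.25, limma adjusted p = 0.0137). Fadd was higher by 0.58 (SE 0.19, limma adjusted p = 0.033). Casp8 differed by 0.09 (95% interval -0.47 to 0.65) and did not pass. Of the 4 genes tested 3 passed, where 39.5% of all genes did.

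The Mlkl call was lost without Kdm4d library 2 (limma adjusted p = 0.128), in which the gene is listed at 0, or without SCNT 2-cell library 1 (limma adjusted p = 0.119). The Fadd call was lost without Kdm4d library 1 (limma adjusted p = 0.108) or without either SCNT 2-cell library (limma adjusted p = 0.0523 and 0.167). Their ranges over 10 alternatives were 0.00417 to 0.128 for Mlkl and 0.00821 to 0.167 for Fadd. The Mlkl and Fadd calls were also lost with group weights and in a fit to the compared groups only, where 28.7% and 21.4% of all genes were called. Mlkl thus passed in 6 of the 10 alternatives, Fadd in 5 and Ripk1 in all 10.

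Against SCNT 2-cell embryos, Mlkl was lower and Casp8 higher in mutant embryos. Ripk3 differed by -1.02, from 35.7 to 18.1 ± 8.19 FPKM (SD, n = 2), with no test. Mlkl fell by 0.80 (SE 0.25, limma adjusted p = 0.0494) and Casp8 rose by 0.84 (SE 0.26, limma adjusted p = 0.0425). Ripk1 differed by -0.49 (SE 0.17, limma adjusted p = 0.068) and Fadd by 0.20 (95% interval -0.22 to 0.63). Of the 4 tested genes 2 passed, where 17.7% of all genes did. Neither call is firm: leaving out any single library except mutant library 2 ended both. Casp8 was then at 0.38 without mutant library 1, and at 0.90 and 0.77 without SCNT 2-cell library 1 or 2. Whether the mutant and Kdm4d share these changes is not read from here, since both comparisons use the same SCNT 2-cell libraries.

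Set against fertilised embryos, both overexpressing groups kept a higher Ripk3 level. Its difference from IVF 2-cell embryos was 2.52 for Kdm4d and 4.05 for the mutant, with no test because the IVF libraries took part in its choice. For Kdm4d none of the other 4 genes passed in the limma fit, where 20.3% of all genes did, and 2 of them were at an unadjusted p under 0.05: Ripk1 at 0.42 (95% interval 0.04 to 0.79, adjusted p = 0.107) and Fadd at 0.54 (95% interval 0.12 to 0.97, adjusted p = 0.0675). For the mutant Ripk1 was higher by 1.10 (SE 0.17, limma adjusted p = 0.00024), 2.43 times the IVF level, and Casp8 by 0.87 (SE 0.26, limma adjusted p = 0.0124), so that 2 of 4 passed where 54.5% of all genes did. Without mutant library 1 Casp8 differed by 0.42 (limma adjusted p = 0.103), and without IVF 2-cell library 1 or 2 its adjusted p was 0.0511 or 0.0554, within 0.000263 to 0.214 over 10 alternatives. The Casp8 call held in 5 of the 10. The median difference over all genes was 0.18 for Kdm4d and 0.28 for the mutant. Quantile normalization brought it to -0.01 and 0.03. Relative to the median, Ripk1 differed by 0.82 and Casp8 by 0.59 in the mutant.

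From the 1-cell to the 2-cell stage, Casp8 fell in both kinds of embryo and Ripk1 fell after IVF. In IVF embryos Casp8 went from 37.7 ± 1.08 to 0.535 ± 0.0144 FPKM (SD, n = 2), a log2 change of -4.66 (SE 0.26, limma adjusted p = 2.0e-08). In SCNT embryos it went from 32.9 ± 0.993 to 0.576 ± 0.0977 FPKM (SD, n = 2), a log2 change of -4.43 (SE 0.26, limma adjusted p = 6.6e-08). In IVF embryos Ripk1 fell by 1.01 (SE 0.17, limma adjusted p = 0.00020) and Mlkl by 0.73 (SE 0.25, limma adjusted p = 0.0225). The Mlkl call was lost without IVF 1-cell library 1 (log2 -0.56, limma adjusted p = 0.151) or without either IVF 2-cell library (limma adjusted p = 0.0790 and 0.0748), within 0.000998 to 0.151 over 10 alternatives. Mlkl passed in 5 of the 10. Fadd differed by 0.22 (95% interval -0.20 to 0.65). Thus 3 of 4 genes fell, where 67.6% of all genes were called and 37.2% fell.

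In SCNT embryos Casp8 alone of the 4 passed, where 67% of all genes did. Ripk1 differed by 0.26 (95% interval -0.11 to 0.63, limma adjusted p = 0.196), Mlkl by 0.33 (95% interval -0.23 to 0.88) and Fadd by -0.23 (95% interval -0.65 to 0.19). After quantile normalization Fadd passed as lower, with a difference of -0.66 (limma adjusted p = 0.0061, within 0.00613 to 0.682 over 10 alternatives). Ripk3 differed by 5.19, without a test, and by 0.13 in IVF embryos. The ratio of Casp8 to Ripk1 in IVF embryos was 4.01 and 4.09 in the 1-cell libraries and 0.146 and 0.115 in the 2-cell libraries. The sum of 10 oocyte transcripts fell as well. It was 12681 to 13025 FPKM in IVF 1-cell and 1963 to 2014 FPKM in IVF 2-cell embryos, and 10499 to 11094 FPKM and 1159 to 1343 FPKM after SCNT. Zp3 went the other way, from a mean of 21.6 to 56.0 FPKM after IVF and from 14.3 to 30.0 FPKM after SCNT. The part of the oocyte transcripts in the Casp8 fall was not tested. In pooled embryos, fewer cells with a transcript and less transcript per cell cannot be told apart.

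At the 1-cell stage SCNT and IVF embryos differed little in these genes. None of the 5 passed in the limma fit, where 2.31% of all genes did, and 1 of them, Fadd, had an unadjusted p of 0.0494. Fadd differed by 0.42 (95% interval 0.00 to 0.84) and Ripk1 by 0.32 (95% interval -0.05 to 0.69), Mlkl by -0.24 (95% interval -0.79 to 0.31) and Casp8 by -0.19 (95% interval -0.75 to 0.36). For Ripk3 both groups were at or near 0. With weights per group, limma called Fadd and Ripk1 as higher after SCNT, in a fit that called 30.3% of all genes.

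Donor cells and IVF 1-cell embryos differed in all 5 genes, where 77.9% of all genes passed. Ripk3, Mlkl and Fadd were higher in the donor cells, by 1.71 (SE 0.33, limma adjusted p = 0.00042), 1.27 (SE 0.25, limma adjusted p = 0.00055) and 1.20 (SE 0.19, limma adjusted p = 9.4e-05). The difference was -2.46 for Casp8 (SE 0.26, limma adjusted p = 2.0e-06) and -0.57 for Ripk1 (SE 0.17, limma adjusted p = 0.0087), both lower in donor cells. Without donor library 1 Ripk1 was at -0.48 (limma adjusted p = 0.0627), within 0.000439 to 0.0627 over 10 alternatives.

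Within 50 kb of it the table lists 7 other genes, Dhrs1, 2610027L16Rik, Cideb, Ltb4r2, Ltb4r1, Adcy4 and Nfatc4. The last 5 of these stayed at or below 0.335 FPKM in every library, Adcy4 included, whose end lies 975 bases from Ripk3. Dhrs1, an oxidoreductase gene, was at 3.80 and 5.52 FPKM in SCNT 2-cell and 4.02 and 5.74 FPKM in IVF 2-cell embryos, with overlapping libraries, and at 45.9 and 41.7 FPKM in IVF 1-cell embryos. The gene 2610027L16Rik was at 5.16 and 5.03 FPKM in IVF 2-cell embryos and at 2.15 and 1.69 FPKM in SCNT 2-cell embryos. It was thus higher after IVF, opposite in direction to Ripk3 and without a test. The sources used here do not say whether counting used strand.

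**Figure D3:**
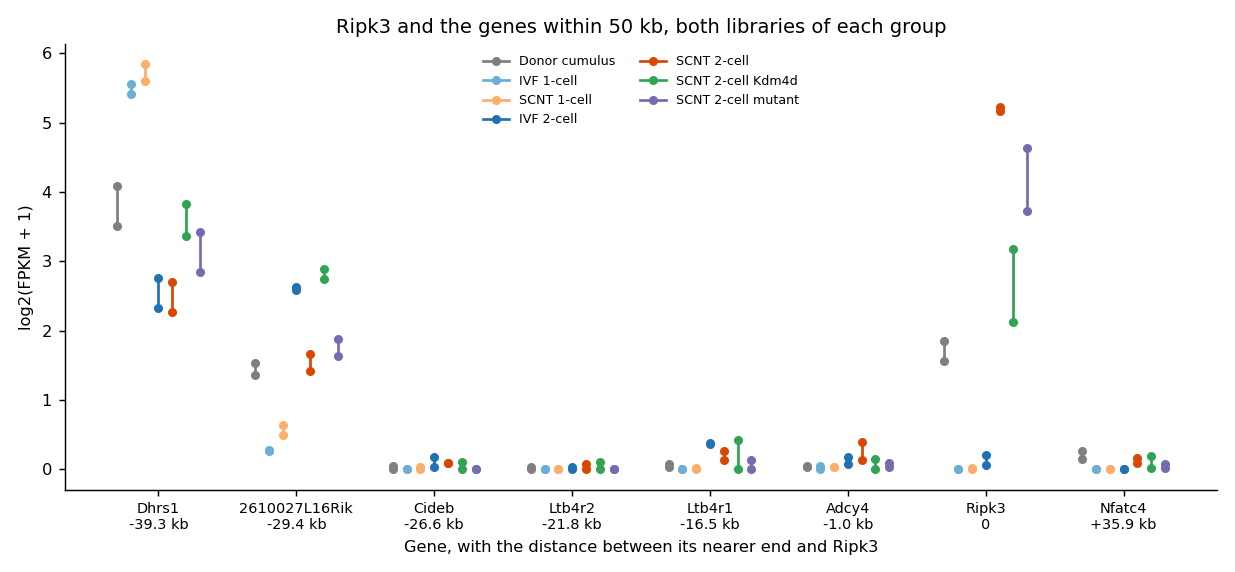
Log2(FPKM + 1) of Ripk3 and of the 7 genes within 50 kb, ordered by distance from Ripk3, with both libraries of each of the 7 groups as joined points. Ripk3 stands at 36.5 and 35 FPKM after SCNT, while 5 of its 7 neighbours do not exceed 0.335 FPKM in any library.

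Over the 4 groups of 2-cell embryos the means of Ripk1 had the same order as those of Ripk3, highest in SCNT, then mutant, Kdm4d and IVF embryos. Over the 14 libraries, which share groups and depth, Pearson's r of log2(FPKM + 1) with Ripk3 was 0.43 for Ripk1, -0.01 for Mlkl, -0.63 for Casp8 and 0.10 for Fadd, given as descriptions. Among 8951 genes that reached a mean of 5 FPKM in any group, the 8 most like Ripk3 were Abcb6 (r = 0.97), Fam98c (0.97), Igfbp2 (0.96), LOC545261 (0.96), Klc4 (0.96), Ifitm1 (0.95), Impact (0.95) and 9430008C03Rik (0.95). Of the 50-base stretches of Abcb6 50% are shared with other genes, and of Fam98c 43.2%, so their values are uncertain.

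Impact, an imprinted gene whose product regulates the eIF2 kinase GCN2, was the most abundant of the 8. It was at 271 ± 71.8 FPKM (SD, n = 2) in SCNT 2-cell, 217 ± 74.4 in mutant, 68.5 ± 38.4 in Kdm4d and 5.56 ± 0.287 in IVF 2-cell embryos. Igfbp2, which encodes a binding protein of insulin-like growth factors, was at 8.89 ± 0.180 FPKM (SD, n = 2) in SCNT 2-cell and 0.565 ± 0.390 in IVF 2-cell embryos. Ifitm1, an interferon-induced membrane protein gene, was at 9.27 ± 1.02 FPKM (SD, n = 2) and 1.21 ± 0.395. Genes like Ripk3 by this measure are high in SCNT 2-cell embryos by construction.

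**Figure D4:**
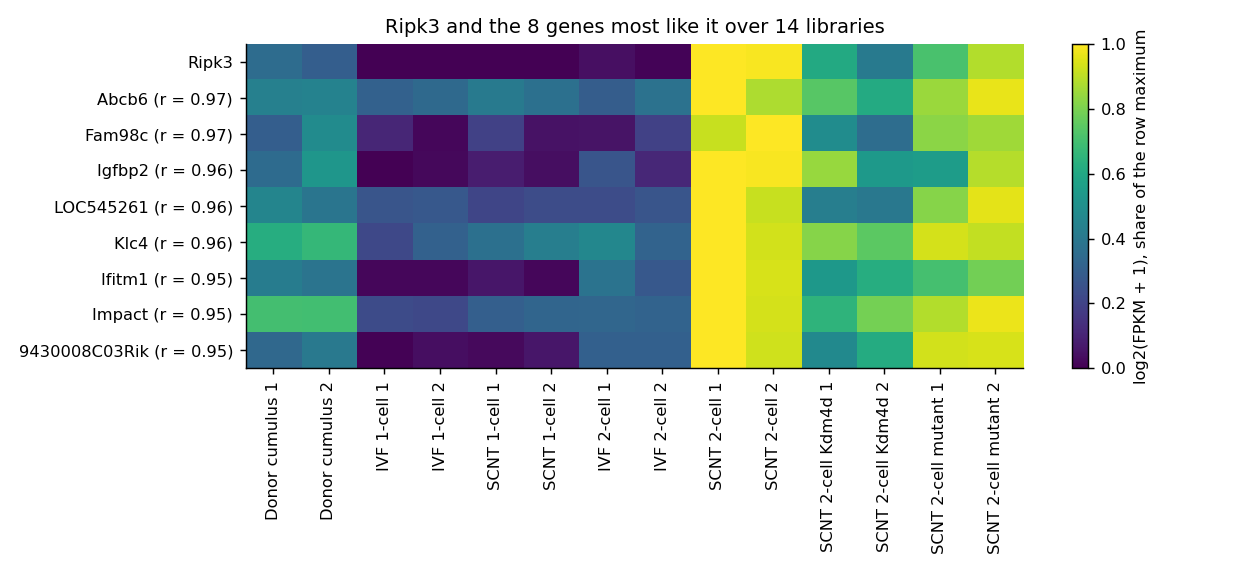
Colour shows log2(FPKM + 1) as a share of the row maximum, for Ripk3 and the 8 genes most like it by Pearson's r over the 14 libraries (r = 0.95 to 0.97); columns are libraries. The group mean of each is highest in SCNT 2-cell embryos and next highest in mutant embryos.

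Of 87 other genes of the pathway, set out in 5 lists by role, 73 passed the filter. With Kdm4d against the mutant, 22 of the 73 were higher and 16 lower, so that 52.1% were called against 43.9% of all genes, with a median difference of -0.08 against -0.09. Among the caspases, Bcl2 family and executioners 8 of 20 tested rose and 5 fell, among partners of Ripk3, Mlkl and Casp8 7 of 21 rose and 2 fell, among adaptors and ubiquitin enzymes 5 of 21 rose and 4 fell, and among receptors and sensors 2 of 8 rose and 2 fell. All 3 other receptor-interacting kinases, Ripk2, Ripk4 and Dstyk, were lower.

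Ripk2, the kinase of NOD receptor signalling, was at 1.78 ± 0.377 FPKM (SD, n = 2) with Kdm4d and 7.0 ± 1.86 with the mutant, a log2 difference of -1.51 (limma adjusted p = 0.00019). Casp6, an executioner caspase, was lower with Kdm4d at 5.22 ± 0.180 against 18.5 ± 2.88 FPKM (SD, n = 2; log2 -1.64, limma adjusted p = 0.00013). Casp2, a caspase activated on the PIDDosome, was lower as well, with a difference of -1.45 (limma adjusted p = 0.0018). Ripk2 and Casp6 were also higher in the mutant than in SCNT 2-cell embryos (log2 0.95 and 0.89, limma adjusted p = 0.0102 and 0.0143). Casp6 and Casp2 were lower with Kdm4d than in SCNT 2-cell embryos (log2 -0.76 and -1.19, limma adjusted p = 0.0121 and 0.0058).

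Parp1, a DNA repair enzyme cleaved in apoptosis, was at 18.9 ± 0.665 with Kdm4d and 6.85 ± 0.172 FPKM with the mutant (SD, n = 2; limma adjusted p = 0.00017). Bid, the BH3-only protein that caspase-8 cleaves, was at 12.5 ± 1.65 and 4.59 ± 3.65 FPKM (SD, n = 2; limma adjusted p = 0.0131). Hsp90ab1, a chaperone needed for RIPK3 and MLKL function, was at 349 ± 85.1 and 89.8 ± 36.8 FPKM (SD, n = 2; limma adjusted p = 0.00015), and Glul, glutamine synthetase, a metabolic enzyme bound by RIPK3, at 262 ± 36.8 and 55.2 ± 20.2 FPKM (SD, n = 2; limma adjusted p = 3.5e-05). Mean levels in SCNT 2-cell embryos were 11.5 FPKM for Bid and 219 FPKM for Hsp90ab1. Both genes were lower in the mutant than in those embryos (log2 -1.32 and -1.33, limma adjusted p = 0.0416 and 0.0064). Parp1 and Glul were instead higher with Kdm4d than in SCNT 2-cell embryos (log2 1.01 and 1.82, limma adjusted p = 0.00089 and 0.000103).

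Against SCNT 2-cell embryos 14 of the 73 were higher and 12 lower with Kdm4d, 35.6% against 39.5% of all genes. Fam105b, the older symbol of Otulin, which removes linear ubiquitin chains from the RIPK1 complex, fell from 8.50 ± 0.325 to 2.12 ± 0.126 FPKM (SD, n = 2; limma adjusted p = 4.6e-05), and was at 2.29 ± 0.325 FPKM in IVF 2-cell embryos. It was lower in mutant than in SCNT 2-cell embryos as well, at 4.61 ± 0.354 FPKM (SD, n = 2; log2 -0.76, limma adjusted p = 0.0138). Sp1, the factor named above for its motif, was at 14.4 ± 0.0593 FPKM in SCNT 2-cell, 40.7 ± 7.99 in Kdm4d, 16.9 ± 3.47 in mutant and 35.3 ± 1.66 in IVF 2-cell embryos (SD, n = 2), and its rise with Kdm4d passed (limma adjusted p = 8.7e-05). Mcl1, an anti-apoptotic Bcl2 relative, rose from 8.77 ± 0.959 to 19.6 ± 6.76 FPKM (SD, n = 2; limma adjusted p = 0.0025). Flot1, a membrane scaffold protein that takes part in removal of MLKL from the membrane, rose from 4.01 ± 0.388 to 18.6 ± 2.63 FPKM (SD, n = 2; limma adjusted p = 0.00012).

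Between the stages the lists moved about as often as all genes. In IVF embryos 27 of the 73 rose and 21 fell (65.8% against 67.6% of all genes), and in SCNT embryos 34 rose and 14 fell (65.8% against 67%). Birc3, the ubiquitin ligase cIAP2 of the RIPK1 complex, fell like Casp8, from a mean of 233 to 13.4 FPKM in IVF embryos (log2 -4.02, limma adjusted p = 5.2e-08) and from 205 to 10.3 FPKM in SCNT embryos (log2 -4.25, limma adjusted p = 8.0e-08). Uhrf1, a maintenance factor of DNA methylation that silences Ripk3 in other cells, fell from 87.7 to 11.5 FPKM after IVF and from 89.4 to 14.9 FPKM after SCNT (limma adjusted p = 3.6e-07 and 1.6e-06).

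In the other comparisons the share called was again near that of all genes. The counts were 44 higher and 15 lower in donor cells against IVF 1-cell embryos (80.8% against 77.9% of all genes), and 1 and 1 in SCNT against IVF 1-cell embryos (2.74% against 2.31%). They were 7 and 9 in the mutant against SCNT 2-cell embryos (21.9% against 17.7%). Against IVF 2-cell embryos they were 10 and 3 in Kdm4d (17.8% against 20.3%) and 23 and 17 in the mutant (54.8% against 54.5%). In SCNT against IVF 2-cell embryos, where no calls are used, the median difference of the 73 was 0.17 against 0.23 over all genes.

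**Figure D5:**
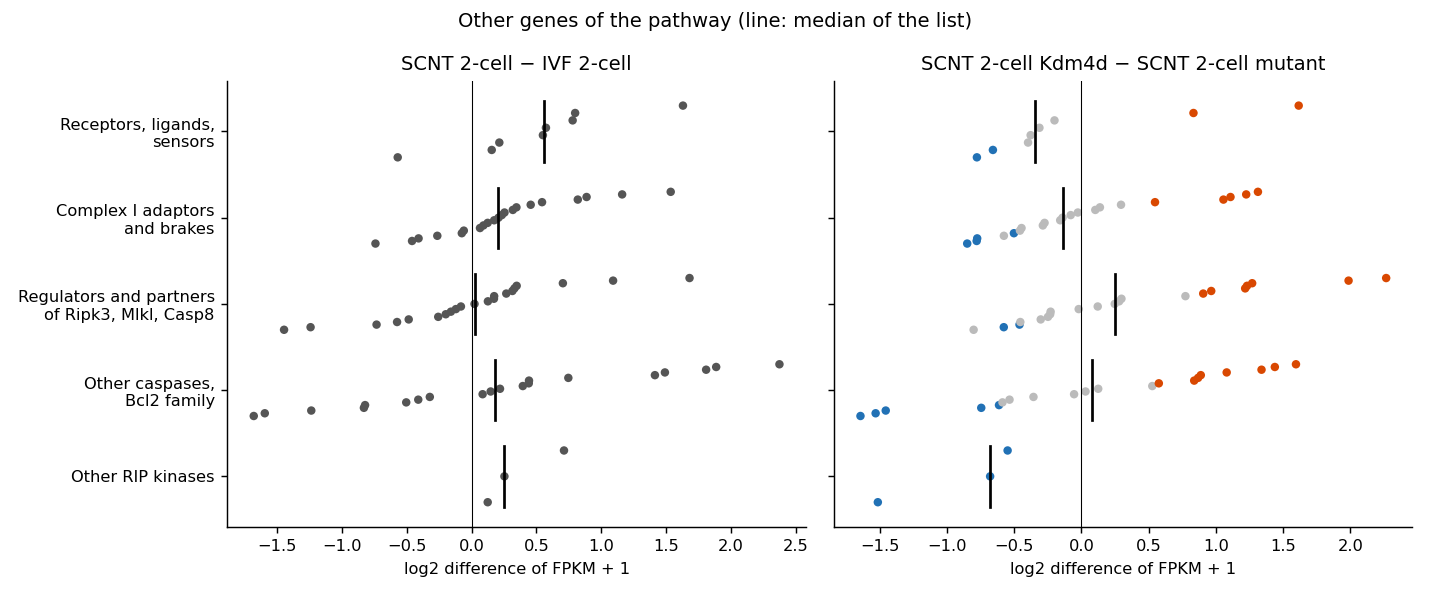
Log2(FPKM + 1) differences of the 73 tested genes of the pathway in 5 lists, SCNT minus IVF 2-cell embryos (left) and Kdm4d minus mutant (right); each point is a gene, lines are medians, and on the right red or blue points passed the limma test at an adjusted p under 0.05 as higher or lower. The left panel shows no calls. With Kdm4d against the mutant 22 lie higher and 16 lower.

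RIPK3 is best known from immune cells, so their markers were summed. The 14 immune genes came to 137 to 257 FPKM in donor cells, 1.31 to 2.13 in IVF 1-cell and 4.05 to 4.88 in SCNT 1-cell embryos. At the 2-cell stage the sums were 18.2 to 20.6 FPKM after IVF and 40.0 to 48.6 FPKM after SCNT. They were 31.2 to 39.6 FPKM with Kdm4d and 48.3 to 57.8 FPKM with the mutant. The mean of 13 of the 14 was higher in SCNT than in IVF 2-cell embryos, with both libraries above for 8 of them. How many of all genes were placed in this way was not counted, and 46.9% of all genes were called in this comparison. Only 5 of the 14 reached a mean of 1 FPKM in SCNT and 3 in IVF 2-cell embryos, so most rest on little signal. Over all groups the sums did not have the order of Ripk3. They were highest in donor cells, and those of the mutant and SCNT 2-cell libraries overlapped. Cd52 held most of the sum, at 30.0 and 25.7 FPKM after SCNT and 10.7 and 12.9 FPKM after IVF. Lyz2 stood at 4.50 and 4.70 against 0.525 and 0.190 FPKM, Cd68 at 4.75 and 2.13 against 1.85 and 0.490 FPKM, and Coro1a at 3.31 and 1.5 against 1.03 and 0.133 FPKM. The leukocyte gene Ptprc was at 0.274 and 0.0713 FPKM after SCNT and listed at 0 after IVF. The part of the immune transcripts in the Ripk3 levels was not tested. The 16 cumulus genes summed to 67.7 to 73.8 FPKM in SCNT and to 94.4 to 95.5 FPKM in IVF 2-cell embryos. Without Gja1, their most abundant member in IVF 2-cell embryos, the sums were 37.9 and 33.6 FPKM after SCNT and 31.6 and 40.6 FPKM after IVF. Of the 16, 4 were higher and 4 lower in both SCNT libraries, with the share over all genes again not counted. The 9 transcripts of the 2-cell stage summed to 106 to 152 FPKM in SCNT, 325 to 334 in IVF, 277 and 166 in Kdm4d and 35.5 and 83.8 in mutant 2-cell embryos, with Tcstv1 and Tcstv3 at 0 in every library. The part of the 2-cell transcripts in the Ripk3 levels was not tested.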

How the data were processed

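FPKM were computed and deposited by the authors, 1 value per gene and library. Per the submitters' processing notes, Novoalign (version not given) and Cufflinks 2.0.2 were used on mm9. The sources used here do not give filters, annotation, strand or the handling of reads matching more than 1 place. Libraries were single-end, 50 bases, from SMARTer cDNA, per the labels' protocols. Table starts count from 0, so 1 was added.

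From the table, 808 short RNA rows were left out by name and rows sharing a symbol were summed. Those reaching 1 FPKM in 2 or more libraries, 13451 symbols, were fitted as log2(FPKM + 1) with limma 3.58.1 in R 4.3.3. The fit had 7 group means, an intensity trend and 7 residual degrees of freedom. Adjustment was by Benjamini and Hochberg per comparison. A run on simulated data gave every library of a gene the same spread, so it could not check the unequal spread between groups. Depth of counts is not in the table, so relative depth came from ratios of low values. Alternatives were a pseudocount of 0.1, no filter, quantile normalization, a replicate block, group weights, fits to the compared groups and leaving out each library.

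The 5 genes and the lists were chosen with earlier results of these data known. Named besides these were Kdm4d, the 8 genes most like Ripk3, the neighbours within 50 kb and, per comparison and over the lists, up to 5 called genes in each direction with the largest change, non-overlapping libraries and a group mean reaching 5 FPKM; the text gives a selection. Ripk4, the levels of Sp1 and Fam105b in other groups, and the marker genes named singly, were picked after their values were seen. One gene of the lists that the rule names is not reported here.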

Additional observations from a re-analysis of the deposited data

Results flagged for a closer look

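Ripk1 had a log2 difference of -1.01 from 1-cell to 2-cell in IVF embryos, which passed its test, and of 0.26 in SCNT embryos, which did not. Every 2-cell library lay below every 1-cell library after IVF, and above after SCNT. Fadd had a log2 difference of 0.22 in IVF and of -0.23 in SCNT embryos, again with no overlap between libraries of a kind, although neither passed its own test. Each gene is listed here because its libraries lay in opposite directions in the 2 kinds of embryo, and that contrast was not tested. How many of all genes do the same was not counted.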

How the results depend on the processing

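Of 270 values of single genes under another setting, 231 kept direction and side of the threshold, 25 fell below it, 7 rose past it and 7 changed sign. Of 180 with a library left out the numbers were 150, 20, 3 and 7. The causes were not tested. The counts that follow are of the 5 genes and include Ripk3, also in comparisons where it is given no test above. In Kdm4d against SCNT 2-cell embryos Ripk3 is counted too, but the same SCNT 2-cell libraries took part in its choice, so nothing is read from it. The counts describe the settings and are no result about the genes. With group weights 2 were called in SCNT against IVF 1-cell embryos, 2 in Kdm4d and 0 in mutant against SCNT 2-cell embryos, and 1 in Kdm4d against mutant, where 30.3%, 28.7%, 4.19% and 16.7% of all genes were called. In fits to the compared groups only, these were 1, 2, 0 and 0, and 0 in Kdm4d against IVF 2-cell embryos, where 20.7%, 21.4%, 0%, 0% and 1.04% of all genes were called, so the counts of 0 say nothing about the 5 genes. In mutant against SCNT 2-cell embryos limma called 1 with a pseudocount of 0.1 and 0 with no filter. Of all genes 13.8% and 10.3% were called there. In the fit as reported 4 were at an unadjusted p under 0.05, as were 4414 of all 13451 genes. Counts with a library left out are not given, since the number of all genes called changed with the library.

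The labels give every group replicate numbers 1 and 2 but do not say that they pair libraries. Deviations of same-numbered libraries correlated at -0.249 to 0.302 over 21 pairs of groups, 2 of them over 0.1. The highest, 0.302, was between the Kdm4d and mutant groups, and the lowest, -0.249, between SCNT 2-cell and Kdm4d embryos. With the replicate block the count in mutant against SCNT 2-cell embryos was 1, where limma called 16.1% of all genes. Mlkl was then at a limma adjusted p of 0.0586. In Kdm4d against mutant, Ripk3 had a limma adjusted p of 0.00476 with the block.

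Values that changed sign were called in neither fit. Under quantile normalization these were -0.0023 for Ripk3 in SCNT against IVF 1-cell embryos, -0.12 for Mlkl between the stages of SCNT embryos, 0.039 for Mlkl in Kdm4d against mutant, -0.090 for Casp8 in Kdm4d against IVF 2-cell embryos, and -0.28 for Mlkl and -0.26 for Fadd in mutant against IVF 2-cell embryos, where Mlkl was at -0.065 with a pseudocount of 0.1. With a library left out, Casp8 ranged from -0.13 to 0.31 in Kdm4d against SCNT 2-cell embryos and from -0.091 to 0.35 in Kdm4d against IVF 2-cell embryos. Mlkl ranged from -0.45 to 0.23 in Kdm4d against mutant, from -0.43 to 0.25 in Kdm4d against IVF 2-cell embryos and from -0.22 to 0.26 in mutant against IVF 2-cell embryos, where Fadd ranged from -0.016 to 0.36. Of the 8 genes most like Ripk3, 3 were shared with a pseudocount of 0.1, 5 after quantile normalization and 8 with no filter. Quantile normalization moved the genes called in Kdm4d against IVF 2-cell embryos from 2235 higher of 2733 to 918 of 1955, and in mutant against IVF 2-cell embryos from 4893 of 7326 to 3316 of 6566. The number of libraries, 2 a group, and the low depth of the overexpressing libraries limit what could be detected.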
